A study of Homo sapiens with 6 samples.

Results

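The 8 genes described here encode the core of the hemidesmosome and chains of its ligand, laminin-332: ITGA6, ITGB4, COL17A1, DST, PLEC, LAMA3, LAMB3 and CD151. They were chosen by name, with earlier results of these data known. Each matched 1 of the 56505 entries of the deposited gene count table. The counts come from total RNA of BT20, an established triple negative breast cancer line that makes cytokeratin 5 (the KRT5 product, abbreviated CK5). The line carried either a control hairpin (pLK0-shControl, 3 libraries) or a hairpin against CK5 (shCK5-22, 3 libraries). Both groups therefore hold a hairpin vector, each arm rests on 1 hairpin, and all cells grew in DMEM/F12 with 10% fetal bovine serum and no further treatment. The sources used here do not say if the cells of an arm were a pool or a clone. The labels do not say that the 3 libraries of a group were separate cultures, so each p-value rests on a spread among libraries that could be technical.

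Hemidesmosomes are junctions at the base of basal epithelial cells that tie the keratin filaments inside the cell to the basement membrane outside it. Integrin α6β4 (ITGA6 with ITGB4) and collagen XVII (COL17A1) span the membrane with the tetraspanin CD151, and the plakins plectin (PLEC) and BPAG1 (an epithelial product of DST) link them to keratins, among them the pair that keratin 5 forms with keratin 14. Laminin-332, a basement membrane protein, holds an α3 chain (LAMA3) and a β3 chain (LAMB3), and inherited loss of its chains, of the integrin, of collagen XVII or of plectin causes blistering skin disease.

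Sequences upstream of the annotated starts of 2 members are shown first, because COL17A1 fell most and LAMB3 rose most among the members called below, and they give the DNA next to those starts. RefSeq windows of 250 upstream bases (GRCh38.p14) were matched for 5 of the 8 members, 10 windows in all. Bases inside an exon of the GENCODE 29 annotation were left out of the printed runs. Capitals mark letters that match a searched motif: TGANTCA, the AP-1 site, or GGGCGG, the GC box. The first run lies at chr10:104085958-104086130 on the minus strand, and the other at chr1:209651395-209651624 on the minus strand, upstream of start 3 of the 3 listed for LAMB3.
COL17A1: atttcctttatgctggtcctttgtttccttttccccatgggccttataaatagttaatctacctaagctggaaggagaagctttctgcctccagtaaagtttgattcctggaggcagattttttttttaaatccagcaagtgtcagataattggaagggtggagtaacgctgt
LAMB3: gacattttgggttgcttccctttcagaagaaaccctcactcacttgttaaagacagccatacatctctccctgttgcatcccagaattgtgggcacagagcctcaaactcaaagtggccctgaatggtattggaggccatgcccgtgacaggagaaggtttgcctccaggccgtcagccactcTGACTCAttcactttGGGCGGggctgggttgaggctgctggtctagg

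The windows were searched on both strands for TGANTCA and for GGGCGG, which SP factors bind. They were also searched for CAGGTG, the E-box of the SNAI and ZEB repressors. The last motif was GGAATG, which TEAD factors bind. The COL17A1 window held none of these letters. TGANTCA stood in the LAMB3 window above at positions -67 to -61 from the start, with a GC box at -52 to -47, and it stood at 2 places in the single LAMA3 window, -125 to -119 and -69 to -63. The 3 AP-1 matches are set out with 9 bases on each side, so that the windows of the 2 member chains of laminin-332 can be compared. Both LAMA3 matches lie inside an annotated LAMA3 exon. The start of the LAMA3 window (23873020) is internal to the gene, which begins at 23689443. No window was matched at that first position, so these matches describe the internal start only. The 3 runs lie at chr18:23872886-23872910 and chr18:23872942-23872966 on the plus strand and at chr1:209651426-209651450 on the minus strand.
LAMA3 distal: ggcacaggcTGACTCAtgtgtgaag
LAMA3 proximal: ttcctcaccTGAGTCAggcaggccc
LAMB3: cagccactcTGACTCAttcactttg

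A CAGGTG match, read on the opposite strand, overlapped the proximal LAMA3 AP-1 match at -73 to -68. CAGGTG was also present 2 times in ITGA6 window 1, from -136 and from -46, and 1 time in LAMB3 window 1. GGAATG was present in DST window 1, which also held 4 GC boxes. Over all 35116 RefSeq windows of that length, TGANTCA was present in 6.57%, CAGGTG in 17.5%, GGGCGG in 42.6% and GGAATG in 11.9%. These matches describe letters only, and binding was not measured.

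**Figure D1:**
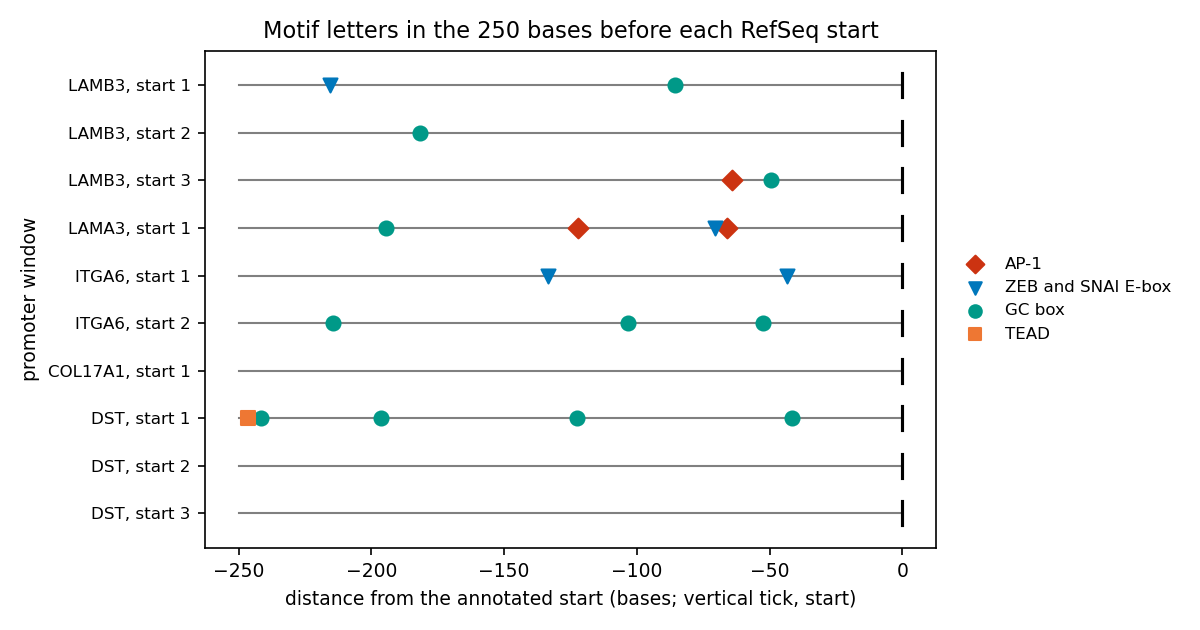
Motif matches in the 10 RefSeq windows of 5 members, drawn by distance in bases from the annotated start (x axis), with 1 line per window and 1 colour per motif. The AP-1 matches sit in the LAMA3 window and in LAMB3 window 3, and the COL17A1 window and DST windows 2 and 3 are empty.

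The 6 libraries held between 47703937 and 65541734 counted reads, and the members took 0.746% to 0.803% of them, with 3063 to 291136 counts per member and library. The targeted gene gives a check of the labels: in CPM, counts scaled to the size of each library, KRT5 was 231, 247 and 244 in shControl libraries 1 to 3 and 21.1, 22.7 and 24.1 in shCK5-22 libraries 1 to 3, which is 10.7-fold lower. Of 18008 genes tested with edgeR's quasi-likelihood test, 6153 passed an adjusted p of 0.05 (34.2%), 3134 of them higher (17.4%) and 3019 lower (16.8%) in shCK5-22. In 8121 genes the CPM ranges of the groups did not overlap (45.1%). The share of counts on mitochondrially encoded mRNAs was 6.73% to 6.95% in shControl and 6.21% to 6.30% in shCK5-22, and its part in the results was not tested. Epithelial markers summed to 9807 to 10320 CPM in shControl and 8683 to 9333 CPM in shCK5-22, and 3 of the 6 passed the test, all lower. Leukocyte markers summed to at most 3.45 CPM in any library (3 of 8 tested, 1 higher, CD3D and MS4A1 at 0 counts throughout). Endothelial markers summed to 24.1 to 31.8 CPM in shControl and 19.7 to 32.0 CPM in shCK5-22, mostly CDH5 (6 of 6 tested, 1 lower). Fibroblast markers summed to 31.8 to 32.8 CPM in shControl and 28.3 to 29.4 CPM in shCK5-22, mostly COL1A1 (4 of 8 tested, 2 higher and 1 lower, PDGFRA and THY1 at 0 counts throughout).

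The 6 members that passed the test did not move together. LAMB3 and ITGA6 were higher in shCK5-22, COL17A1, CD151, LAMA3 and PLEC were lower, and ITGB4 and DST did not pass. Without shCK5-22 replicate 3, 2 members were lower (COL17A1 and CD151). In 6 of the 8 the CPM ranges of the groups did not overlap. The median log2 fold change was -0.03 over the members and -0.01 over all genes tested, and the median size of change was 0.13 and 0.18. All members are abundant, and among the 3281 genes whose mean CPM was at least that of ITGA6, the least abundant member (67.1 CPM), 55.6% passed the test, 64.1% had groups that did not overlap, and the median size of change was 0.11.

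**Figure D2:**
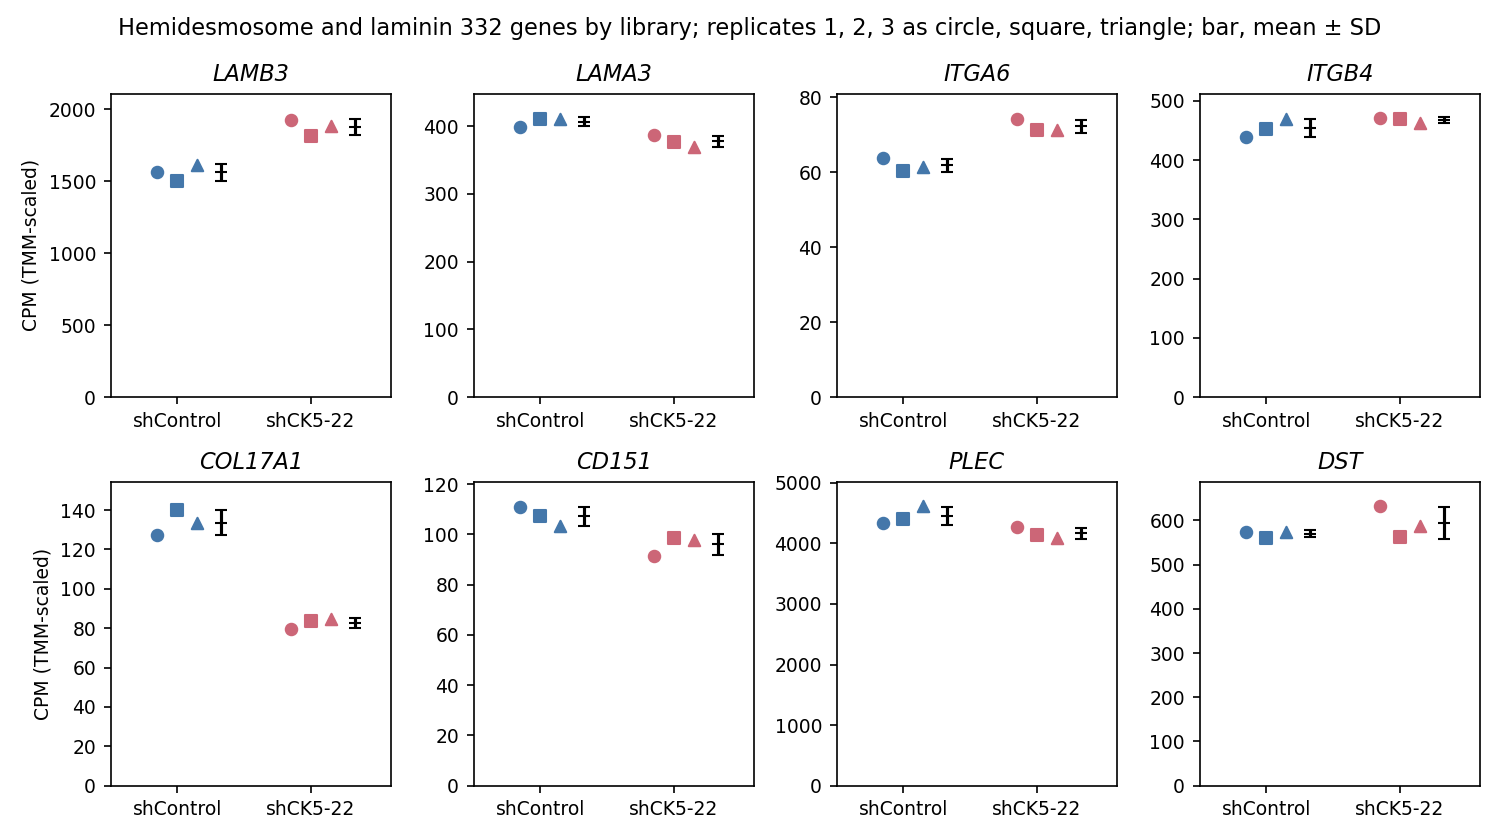
CPM of each of the 8 members in every library (y axis, CPM on a separate scale per panel), with 1 symbol per replicate number and a black bar for the mean ± SD of each group of 3. COL17A1 shows the widest gap between groups, and the points of ITGB4 and DST overlap.

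LAMB3, the β3 chain, was the member that rose most. Its gene lies on the minus strand of chromosome 1 (209614870 to 209652466, GRCh38). The shControl libraries had 1568, 1502 and 1616 CPM and the shCK5-22 libraries 1929, 1816 and 1883 CPM. Every shCK5-22 library was above every shControl library, and the group means were 1562 ± 57.0 and 1876 ± 56.6 CPM (SD, n = 3). The log2 fold change was 0.26 (standard error, SE, 0.03, 95% confidence interval 0.20 to 0.33, adjusted p = 8.11e-07), or 1.2-fold. LAMB3 ranked 43 by level among all genes tested.

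LAMA3, the α3 chain, moved the other way by a smaller amount. It spans chromosome 18 from 23689443 to 23956222 on the plus strand, and its 15 annotated transcripts include short and long α3 forms that a gene count cannot separate. Its CPM were 399, 410 and 410 with the control hairpin and 387, 376 and 370 with the CK5 hairpin. The ranges did not overlap, with means of 406 ± 6.43 and 378 ± 8.62 CPM (SD, n = 3), a log2 fold change of -0.11 (SE 0.03, interval -0.17 to -0.05) and an adjusted p of 0.00576. Without shCK5-22 replicate 3 the log2 fold change was -0.09 and the call was lost (adjusted p = 0.0532, against 0.0011 to 0.0532 over all alternatives).

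The ratio of LAMA3 to LAMB3 counts within a library, which needs no scaling between libraries, was 0.254, 0.273 and 0.254 in shControl and 0.201, 0.207 and 0.196 in shCK5-22. The shCK5-22 libraries were all lower, 1.29-fold on average (two-sided exact permutation test, p = 0.1, the smallest that 3 against 3 libraries allow).

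ITGA6, the α6 integrin chain, was the other member that rose. It lies on chromosome 2 from 172427354 to 172506282 on the plus strand. The shControl libraries had 63.7, 60.4 and 61.5 CPM and the shCK5-22 libraries 74.3, 71.3 and 71.2 CPM. The groups did not overlap (61.9 ± 1.71 and 72.2 ± 1.78 CPM, SD, n = 3), and the log2 fold change was 0.22 (SE 0.04, interval 0.14 to 0.31, adjusted p = 9.59e-05), or 1.17-fold. Its exons share up to 174 bases with loci on the opposite strand, and the strand setting of the counting was among the details not given in the sources used here.

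ITGB4, the β4 chain with which α6 forms the hemidesmosomal receptor, did not pass the test. It lies on chromosome 17 from 75721328 to 75757818 on the plus strand. Its CPM were 439, 453 and 470 with the control hairpin and 472, 470 and 462 with the CK5 hairpin, so the groups overlapped. The log2 fold change was 0.04 with an interval from -0.02 to 0.10 (adjusted p = 0.290, and 0.157 to 0.789 over the alternatives). It was 0.0146 without shControl replicate 1 and 0.0676 without shControl replicate 3, and it passed in neither. The ratio of ITGA6 to ITGB4 counts was 0.145, 0.133 and 0.131 in shControl and 0.158, 0.152 and 0.154 in shCK5-22. It was 1.13-fold higher in shCK5-22 with no overlap (exact permutation test, p = 0.1).

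CD151, the tetraspanin that binds laminin-binding integrins, lies on chromosome 11 from 832843 to 839831 on the plus strand. In shControl it measured 111, 107 and 103 CPM, against 91.3, 98.7 and 97.9 CPM in shCK5-22. The groups did not overlap, and the fall was 1.12-fold (log2 fold change -0.16, SE 0.04, interval -0.24 to -0.08, adjusted p = 0.00222). This value is uncertain, because 257 of its exon bases (6.53%) also belong to POLR2L on the opposite strand, whose own count reached 147% of that of CD151. POLR2L stood at 127 and 130 CPM in the groups (adjusted p = 0.865), and its share in the CD151 counts was not tested.

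COL17A1 had the largest change of the 8 members. Collagen XVII, also called BP180, is a membrane-spanning collagen of the hemidesmosome whose shed ectodomain enters the matrix. The gene lies on chromosome 10 from 104031286 to 104085957 on the minus strand. The shControl libraries had 127, 140 and 133 CPM and the shCK5-22 libraries 79.5, 83.6 and 84.8 CPM. The lowest shControl library was far above the highest shCK5-22 library, and the means were 133 ± 6.37 and 82.6 ± 2.78 CPM (SD, n = 3). COL17A1 fell by 0.69 on the log2 scale (SE 0.04, interval -0.77 to -0.61, adjusted p = 8.39e-12), or 1.62-fold, a larger size of change than in 90.1% of the genes tested. None of its 50-base exon windows occurs in another annotated gene, so reads of other genes do not share its sequence at that length.

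The ratio of COL17A1 to ITGB4 counts set collagen XVII against the β4 chain, which did not pass the test. It was 0.290, 0.309 and 0.284 in shControl and 0.169, 0.178 and 0.184 in shCK5-22. The shCK5-22 libraries were 1.66-fold lower with no overlap (exact permutation test, p = 0.1).

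PLEC encodes plectin, a large linker that joins integrin β4 to keratin filaments. It lies on chromosome 8 from 143915147 to 143976734 on the minus strand and was the most abundant member, ranking 16 of all genes tested. Its CPM were 4331, 4400 and 4616 with the control hairpin and 4266, 4143 and 4085 with the CK5 hairpin. The lowest shControl value lay just above the highest shCK5-22 value, and the log2 fold change was -0.10 (SE 0.03, interval -0.16 to -0.03, adjusted p = 0.0146), or 1.07-fold. That call was lost without shControl replicate 3 (-0.07, adjusted p = 0.144) and without shCK5-22 replicate 3 (-0.08, adjusted p = 0.104), where the alternatives ranged from 0.00301 to 0.144. Of its 50-base exon windows 89 (0.521%) also occur in EPPK1, a related plakin whose log2 fold change of 0.03 did not pass.

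DST encodes the epithelial BPAG1 together with neuronal and muscle forms, and its 35 annotated transcripts were counted as 1 gene. It lies on chromosome 6 from 56457987 to 56954628 on the minus strand. In shControl it measured 574, 561 and 575 CPM, against 632, 563 and 588 CPM in shCK5-22, so the groups overlapped. The log2 fold change was 0.06 with an interval from -0.01 to 0.13 (adjusted p = 0.201). Without shCK5-22 replicate 2, its lowest library in that group, DST passed the test at 0.10 (adjusted p = 0.0223, with 0.0223 to 0.771 over the alternatives). The ratio of DST to PLEC counts was 0.133, 0.128 and 0.124 in shControl and 0.148, 0.136 and 0.144 in shCK5-22, which is 1.11-fold higher with no overlap (exact permutation test, p = 0.1).

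**Figure D3:**
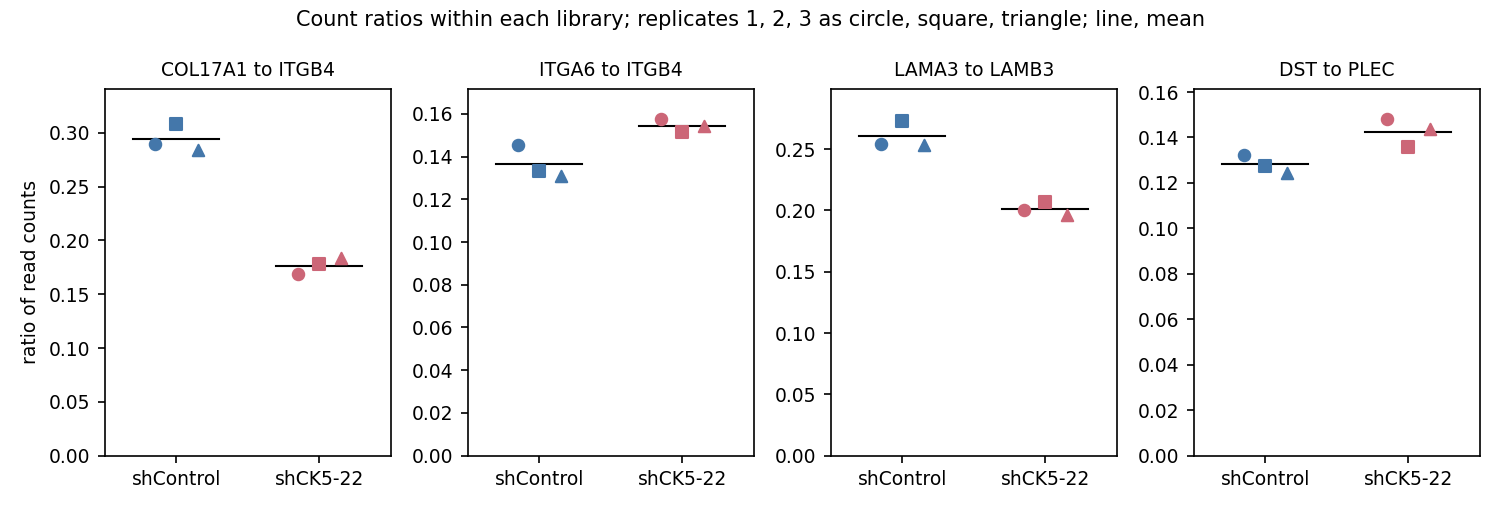
Ratio of counts between members within each library (y axis), 1 panel per pair, 1 symbol per library and a line for the mean of each group. In all 4 pairs the 3 shControl and 3 shCK5-22 points do not overlap. The share of other gene pairs without overlap was not computed, and 45.1% of single genes tested did not overlap.

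Divided by the length of the annotated exons, the levels spanned a wide range. LAMB3 stood at 333 ± 12.2 CPM per kilobase in shControl (SD, n = 3) and PLEC at 262 ± 8.77. ITGB4 followed at 67.1 ± 2.28, and its partner ITGA6 was the lowest at 9.47 ± 0.262. LAMA3 at 27.7 ± 0.438 and CD151 at 27.2 ± 0.941 could not be told apart within their spread, while COL17A1 at 18.9 ± 0.902 stood above DST at 13.5 ± 0.181. In shCK5-22 this last order was turned, with COL17A1 at 11.7 ± 0.393 and DST at 14.0 ± 0.836 CPM per kilobase. With the length of the longest transcript in place of all exons, CD151 stood above LAMA3 (57.7 against 38.1) and DST above COL17A1 (25.4 against 23.5) in shControl, so the order among these 4 depends on which transcripts are made. Protein was not measured.

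**Figure D4:**
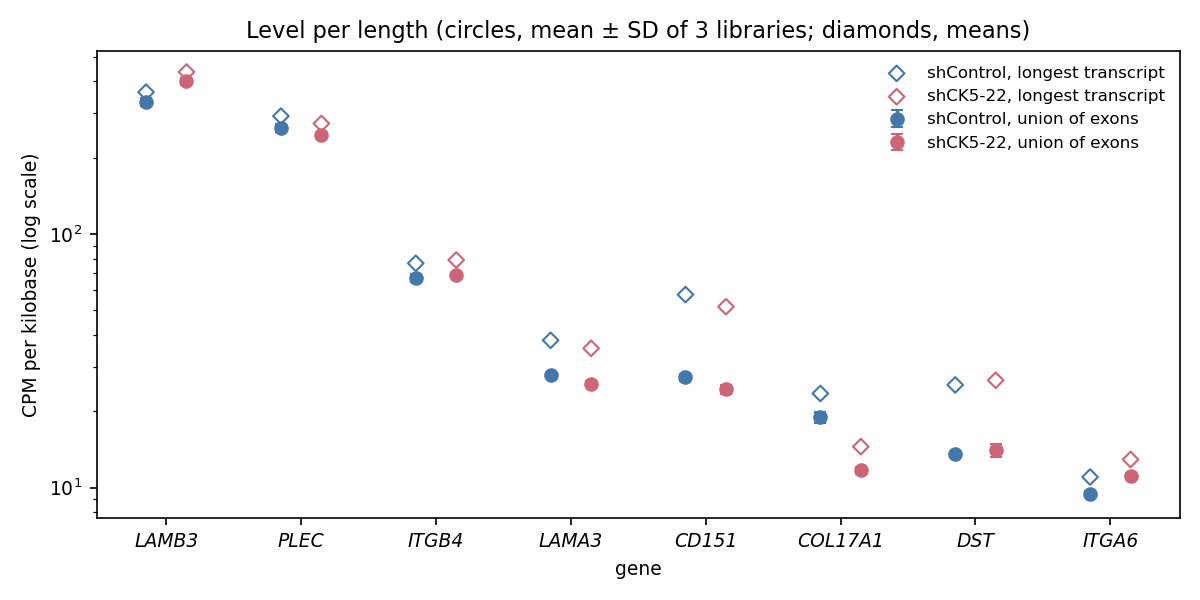
Level of each member in CPM per kilobase (log axis), by group: filled circles are the mean ± SD of 3 libraries over the union of annotated exons, and open diamonds the mean over the longest transcript. LAMB3 and PLEC are the highest and ITGA6 is the lowest in shControl.

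Over the 6 libraries, the genes whose log2 CPM followed COL17A1 most closely were SMPD1, RTF1 and CAMK2N1 (Pearson r of 1.00, 0.999 and 0.999), and 940 of 10451 genes had an r above 0.95. For LAMB3 they were SH2D2A, GPR161 and KPNA5 (r of 0.998, 0.998 and 0.997), with 621 genes above 0.95. With 2 groups of 3 libraries these values mostly record the difference between the groups, and they are given as a description.

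Around the members, 8 lists of partner genes held 90 genes, of which 87 were tested, 21 were higher and 28 lower in shCK5-22. Over all genes tested, 17.4% were higher and 16.8% lower. For the 3281 genes at least as abundant as ITGA6, the shares were 34.1% higher and 21.5% lower. The lists were not compared with these shares by a test. Among the other laminin chains 1 of 9 tested was higher and 1 lower (median log2 fold change -0.02). In 2 fits with a library left out, shControl replicate 2 or shCK5-22 replicate 1, 2 were lower. The same held with no filter, with a minimum of 1 CPM in 3 libraries and with the replicate number as a block. The number higher ranged from 0 to 2 over the alternatives. LAMA4, the α4 chain of vascular and mesenchymal laminins, fell by 0.74 (9.28 ± 0.248 to 5.54 ± 0.691 CPM, adjusted p = 4.52e-06). LAMC1, the γ1 chain shared by most other laminins, was 0.10 higher (319 ± 10.4 to 341 ± 12.8 CPM, adjusted p = 0.0210) with overlapping groups. The LAMC1 call was lost with scaling by library size only (adjusted p = 0.0814) and when either of shControl replicates 1 and 2 or shCK5-22 replicates 1 and 3 was left out, up to an adjusted p of 0.113.

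Of 10 other laminin receptors 3 were higher and 3 lower, with a median of -0.09, and 6 were lower without shCK5-22 replicate 1. DAG1, which encodes dystroglycan, fell by 0.29 (546 ± 4.98 to 447 ± 5.97 CPM, adjusted p = 3.14e-08), and SDC4, which encodes the proteoglycan syndecan-4, rose by 0.26 (523 ± 2.71 to 627 ± 12.3 CPM, adjusted p = 1.63e-07). Integrin α3β1 is the other main receptor for laminin-332. ITGA3 stood at 845 ± 19.1 and 814 ± 27.5 CPM (log2 fold change -0.05, adjusted p = 0.184) and ITGB1 at 1832 ± 6.61 and 1774 ± 60.0 CPM (-0.05, adjusted p = 0.231), with overlapping groups. Without shCK5-22 replicate 1 both passed the test, ITGA3 at an adjusted p of 0.0422 (0.0422 to 0.542 over the alternatives) and ITGB1 at 0.0465 (0.0465 to 0.604).

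Among 12 basement membrane partners 3 were higher and 3 lower (median -0.10). COL7A1, the collagen of the anchoring fibrils that bind laminin-332 from below, rose by 0.69 (17.9 ± 0.488 to 28.9 ± 1.65 CPM, adjusted p = 8.00e-09), a change of the size seen in COL17A1 but in the other direction. HSPG2, which encodes perlecan, fell by 0.50 (165 ± 6.46 to 116 ± 5.97 CPM, adjusted p = 3.08e-09). The type IV collagen chains COL4A1 (0.39) and COL4A2 (0.22) were the other genes that rose, while the type IV chain COL4A6 fell by 0.29 (adjusted p = 0.000289) and COL4A5 did not pass (-0.08). Among 7 tested proteases that cleave laminin-332 or shed collagen XVII, 2 were higher and 2 lower (median -0.06). BMP1, which processes laminin-332 chains, rose by 0.23 (187 ± 5.97 to 219 ± 11.4 CPM), and MMP14, a membrane protease that cuts laminin-332, rose by 0.20 (99.2 ± 0.931 to 114 ± 0.798 CPM). The collagen XVII sheddases ADAM9 (-0.13, adjusted p = 0.00981) and ADAM10 (-0.10, adjusted p = 0.0491, with overlapping groups) were the lower ones. ADAM17 did not pass (-0.06, adjusted p = 0.504). None of the proteases was lower without shControl replicate 3 or without shCK5-22 replicate 3, and 1 was lower without any other single library except shCK5-22 replicate 1. Only 1 was lower with scaling by upper quartile or by library size only, with DESeq2, with limma-voom or at a threshold of 0.01.

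Of 13 kinases and adaptors of integrin α6β4 signalling, 9 were lower and 2 higher, with a median log2 fold change of -0.18. The genes called made up 84.6% of this list. That compares with 34.2% of all genes tested and 55.6% of those at least as abundant as ITGA6. In the other partner lists the share ran from 20% (other plakins) to 76.9% (other tetraspanins), and it was 75% for the members. The lists were chosen with earlier results known, and these differences were not tested. SRC, the tyrosine kinase, fell by 0.87 (84.7 ± 3.22 to 46.3 ± 0.971 CPM, adjusted p = 4.16e-13). ERBB2, a receptor that forms complexes with the integrin, fell by 0.52 (120 ± 1.97 to 83.8 ± 3.35 CPM, adjusted p = 2.40e-10). The receptors MET (-0.30), MST1R (-0.27) and EGFR (-0.18) were also lower. The 2 higher genes were the phosphatase gene PTPN11 (0.45) and PRKCA (0.36), a kinase that phosphorylates integrin β4. These changes are in mRNA, and kinase activity was not measured.

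Among 13 tested tetraspanins other than CD151, 4 were higher and 6 lower (median -0.08). CD82 rose by 0.79 (9.44 ± 0.225 to 16.4 ± 0.793 CPM, adjusted p = 1.83e-08) and TSPAN4 by 0.70 (25.3 ± 1.02 to 41.0 ± 0.993 CPM, adjusted p = 5.15e-10). TSPAN6 fell by 0.49 (24.6 ± 0.421 to 17.5 ± 1.40 CPM, adjusted p = 2.83e-06) and TSPAN1 by 0.27. CD81, a close partner of CD9 at the cell surface, was lower by a small amount (-0.11, adjusted p = 0.00852), and CD9 did not pass (-0.08, adjusted p = 0.0834). Of 5 other plakins none was higher and 1 was lower (median 0.03). That one, EVPL, which encodes envoplakin of the cornified envelope, fell by 0.11 (115 ± 1.31 to 106 ± 4.22 CPM, adjusted p = 0.0140), and the call was lost without shControl replicate 3 (adjusted p = 0.0673) and without shCK5-22 replicate 3 (0.104), where the alternatives reached from 0.00353 to 0.104. Desmoplakin (DSP), the plakin of desmosomes, stood at 964 ± 16.4 and 940 ± 14.6 CPM (-0.04, adjusted p = 0.344).

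Of 18 focal adhesion genes, whose products tie integrins to actin in place of keratin, 6 were higher and 3 lower, with a median of 0.07. The genes of talin (TLN1, 0.24), paxillin (PXN, 0.18), zyxin (ZYX, 0.25) and the kindlins FERMT1 (0.21) and FERMT2 (0.35) were among those that rose. TNS4, which encodes tensin-4, fell by 0.64 (201 ± 5.04 to 129 ± 8.0 CPM, adjusted p = 1.73e-10), and KANK1, a talin-binding protein of the adhesion rim, fell by 0.56 (32.2 ± 1.15 to 21.9 ± 0.260 CPM, adjusted p = 3.80e-08). The difference between this list and the members was not tested.

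**Figure D5:**
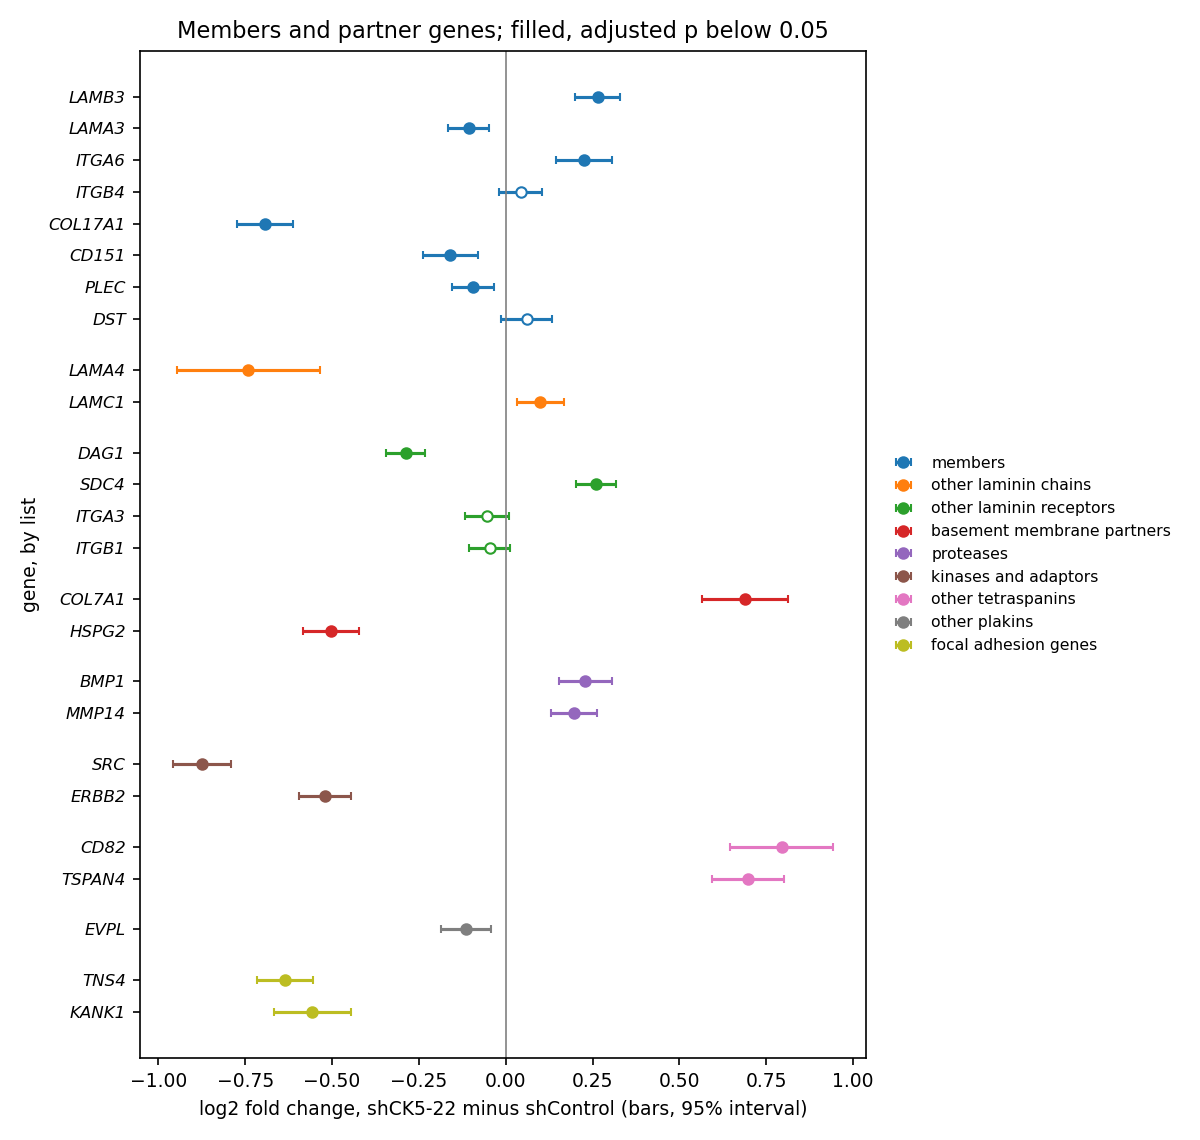
Log2 fold change (x axis, shCK5-22 minus shControl) of the 8 members and of the partner genes chosen from the 8 lists, coloured by list, with 95% intervals computed from the edgeR test statistic and filled points for an adjusted p below 0.05. COL17A1 stands at -0.69 and COL7A1 at 0.69, and the intervals of ITGB4, DST, ITGA3 and ITGB1 cross 0.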

How the data were processed

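RNA-seq of 6 BT20 libraries, 3 per group, was analysed from the read counts per gene that the authors deposited as 1 table. Per the submitters' processing notes, cutadapt, STAR, SAMtools, Cufflinks and the build GRCh38 were used; the counting tool, annotation, strand setting and treatment of multi-mapping reads were not given in the sources used here. Of counts from 1 to 20, 88.3% were even, so a count is not the number of independent fragments. Groups and libraries were taken from the labels. The 27 entries whose symbols had become dates (0.167% to 0.175% of counts) were left out.

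Counts were tested with edgeR 4.0.16 (limma 3.58.1, R 4.3.3): filterByExpr, TMM scaling, a robust quasi-likelihood fit on group, and Benjamini-Hochberg adjustment over 18008 genes at 0.05. CPM are counts divided by TMM-scaled library size. Intervals are 95%. Ratios of members were compared by exact permutation tests of their log2 values, 4 ratios in all, each with an unadjusted p of 0.1, the smallest possible (Benjamini-Hochberg adjusted 0.1). Gene positions and lengths came from GENCODE 29, and upstream sequences from RefSeq; windows of 50 bases were compared between genes. The script was tested on simulated data. The alternatives were other scalings, filters, DESeq2 1.42.0, limma-voom, a replicate block, a threshold of 0.01 and leaving out each library. Named genes were the members, KRT5, ITGA3, ITGB1, the 2 called genes of each partner list with the largest change and a mean of at least 5 CPM in 1 group, examples given with their values, and the 3 genes most like COL17A1 and LAMB3. The members and lists were chosen with earlier results of these data known. A gene that this rule also names is not reported here.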

Additional observations from a re-analysis of the deposited data

How the results depend on the processing

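In all 15 alternatives, COL17A1 (-0.73 to -0.66 when 1 library was left out), LAMB3 (0.24 to 0.29), ITGA6 (0.20 to 0.24), CD151 (-0.19 to -0.12) and KRT5 kept their direction and their call, ITGB4 did not pass, and no member changed direction. PLEC (-0.10, adjusted p = 0.0146) did not pass a threshold of 0.01, and it ranged from -0.119 to -0.0685 when 1 library was left out. LAMA3 ranged from -0.124 to -0.0908 and DST from 0.0138 to 0.0994 in the same way. The number of lower members ranged from 2 to 4, with 2 without shCK5-22 replicate 3, and that of higher members from 2 to 3.

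Whether the replicate numbers pair the libraries was not settled. Same-numbered libraries had correlated deviations of 0.201, 0.355 and -0.0601 for replicates 1, 2 and 3. Libraries of unlike number ranged from -0.314 to 0.126. Replicates 1 and 2 correlated best with their own number, and replicate 3 did not. With the replicate block 6743 genes passed (37.4%), against 6153 (34.2%) without it, and among the members 2 were higher and 4 lower. No filter left 22.8% of genes called and a minimum of 1 CPM in 3 libraries 43.6%. Levels per kilobase moved with the length used.

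Precision is limited by 3 libraries a group. Each interval is for the log2 fold change between groups, with a spread estimate that draws on all genes tested. It reflects variation between these libraries only.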
